A study of Homo sapiens with 19 samples.

Results

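The genes described here are the WNT ligands, their Frizzled and other receptors, the secreted WNT antagonists and a few feedback inhibitors, 45 protein-coding genes of the 44717 Ensembl identifiers listed in any of 19 RNA-seq samples. They were chosen by name: all genes named WNT, FZD, SFRP1 to SFRP5 or DKK1 to DKK4 with their numbers, together with FRZB, WIF1, AXIN2, NKD1, NKD2, ROR1, ROR2 and RYK. By role they are 19 ligands, 10 Frizzled receptors, 3 other receptors (ROR1, ROR2 and RYK), 10 secreted antagonists and 3 intracellular feedback inhibitors (AXIN2, NKD1 and NKD2).

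WNT proteins are secreted, lipid-modified ligands that bind Frizzled receptors together with a co-receptor, LRP5 or LRP6 for the branch that stabilises beta-catenin, and ROR or RYK proteins for branches that do not use beta-catenin. SFRP proteins, FRZB and WIF1 bind WNT ligands outside the cell, whereas DKK1, DKK2 and DKK4 bind the LRP co-receptors. AXIN2 and the NKD genes are targets of beta-catenin with TCF/LEF factors and dampen the same signal inside the cell, and in the melanocyte lineage WNT signalling acts in neural crest specification and on the MITF promoter.

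501Mel, a human melanoma line grown in RPMI with serum, was infected with lentiviral vectors for an shRNA against BRG1, the SMARCA4 gene product and catalytic subunit of a chromatin remodelling complex, or for the scramble control shSCR1, with 3 replicates each. In another set, 501Mel cells received shMITF or the scramble control shSCR2, with 2 replicates each. Hermes 3A, an immortalised line of untransformed human melanocytes, received shSCR, shBRG1 or shMITF, with 3 replicates each, so both Hermes 3A knockdowns share 1 control group. Infected cells of all groups were selected with puromycin, and the Hermes 3A medium also held TPA, cholera toxin, stem cell factor and endothelin-1. Each group is bulk RNA of 1 line, so that fewer cells of a type and less RNA per cell cannot be told apart.

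Between 29158502 and 78857900 reads were counted per sample, and the 45 genes held between 0.0405% and 0.124% of them. SMARCA4 stood at 178 to 193 CPM (read counts scaled to the size of their library) with shSCR1 and 35.8 to 40.6 CPM with shBRG1 in 501Mel, and at 227 to 255 and 44.4 to 47.5 CPM in Hermes 3A. MITF stood at 1048 to 1186 CPM with shSCR2 and 494 to 546 CPM with shMITF in 501Mel, and at 1014 to 1119 and 456 to 719 CPM in Hermes 3A. With shSCR1, however, MITF stood at 513 to 609 CPM, which overlaps the shMITF samples of the same line. MITF and SOX10 also fell with shBRG1, by log2 fold changes of -1.55 and -2.44 in 501Mel and -0.43 and -0.40 in Hermes 3A. In 501Mel the fall of MITF with shMITF itself was -1.06. Effects of losing BRG1 and of lower MITF therefore cannot be told apart with shBRG1. The replicates of some groups stood apart: beyond counting error, replicate counts varied by a coefficient (the biological coefficient of variation of edgeR) of 31.5% with shMITF in Hermes 3A, 18.2% with shMITF and 16.9% with shSCR2 in 501Mel, and 4.58% to 5.97% elsewhere. Of 7 melanocyte lineage markers, 6 or 7 reached 1 RPKM in every group, although their summed level was 791 to 865 RPKM with shBRG1 against 7531 to 8059 RPKM with shSCR1, and 2982 to 3086 with shMITF against 5205 to 5914 with shSCR2, in 501Mel. In Hermes 3A it was 16804 to 17123 RPKM with shSCR, 7983 to 8417 with shBRG1 and 7000 to 9104 with shMITF. The 6 fibroblast markers summed to 0.701 to 3.89 RPKM in 501Mel samples and, mostly from COL1A2, to 7.87 to 8.99 RPKM with shSCR, 13.4 to 14.1 with shBRG1 and 10.3 to 20.2 with shMITF in Hermes 3A. Of 5 keratinocyte markers KRT10 alone reached 1 RPKM, KRT5, KRT14 and KRT1 being at 0 in Hermes 3A, and the 4 endothelial markers summed to at most 2.12 RPKM.

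DKK1 was the one member that changed in all 4 knockdown comparisons. The 250 bases before its start in RefSeq (GRCh38.p14, chr10:52314031-52314280, plus strand) are shown. Of DKK1, AXIN2 and NKD1, the genes considered for display, only DKK1 has a promoter window. Capitals mark CTTTGA or TCAAAG, the core letters of a TCF/LEF site on either strand, and CTTTGT, the reverse complement of ACAAAG, which SOX factors bind and TCF/LEF factors can bind too.

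DKK1: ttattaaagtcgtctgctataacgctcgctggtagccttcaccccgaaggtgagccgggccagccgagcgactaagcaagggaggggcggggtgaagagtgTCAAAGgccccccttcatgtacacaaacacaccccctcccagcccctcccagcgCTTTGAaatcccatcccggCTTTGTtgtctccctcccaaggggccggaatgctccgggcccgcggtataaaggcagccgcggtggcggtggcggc

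The matches begin 149, 95 and 76 bases upstream of the start, and none overlaps another. CTTTGA or its reverse complement was present in 1 of the 34 members with a promoter window, DKK1 itself, and in 11.2% of all 35116 windows. ACAAAG was present in 4 of 34 (DKK1, FZD1, ROR2 and WNT8B) and in 13.7% of all windows. CATGTG, the core of an MITF site in pigment gene promoters, was in the windows of WNT2B and WNT5B and in 9.42% of all windows. CACGTG (6.34% of all windows) and TGACTCA, the AP-1 site (4.20%), were in none of the 34. A match is a description of letters and not a bound site, and AXIN2 and NKD1 are not among the 34.

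The levels of the members were compared as RPKM, the read count divided by exon length and scaled library size, on 1 scale for the 19 samples. At a group mean of 1 RPKM or more, 18 of the 45 genes were present in at least 1 group, and 7 were present in every group (FZD1, FZD2, FZD3, FZD6, FZD7, ROR1 and RYK). The remaining 27 stayed under 1 RPKM in all groups, and 11 of them never exceeded 10 reads in a sample. Thus receptors made up the shared part of the set in both lines.

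**Figure D1:**
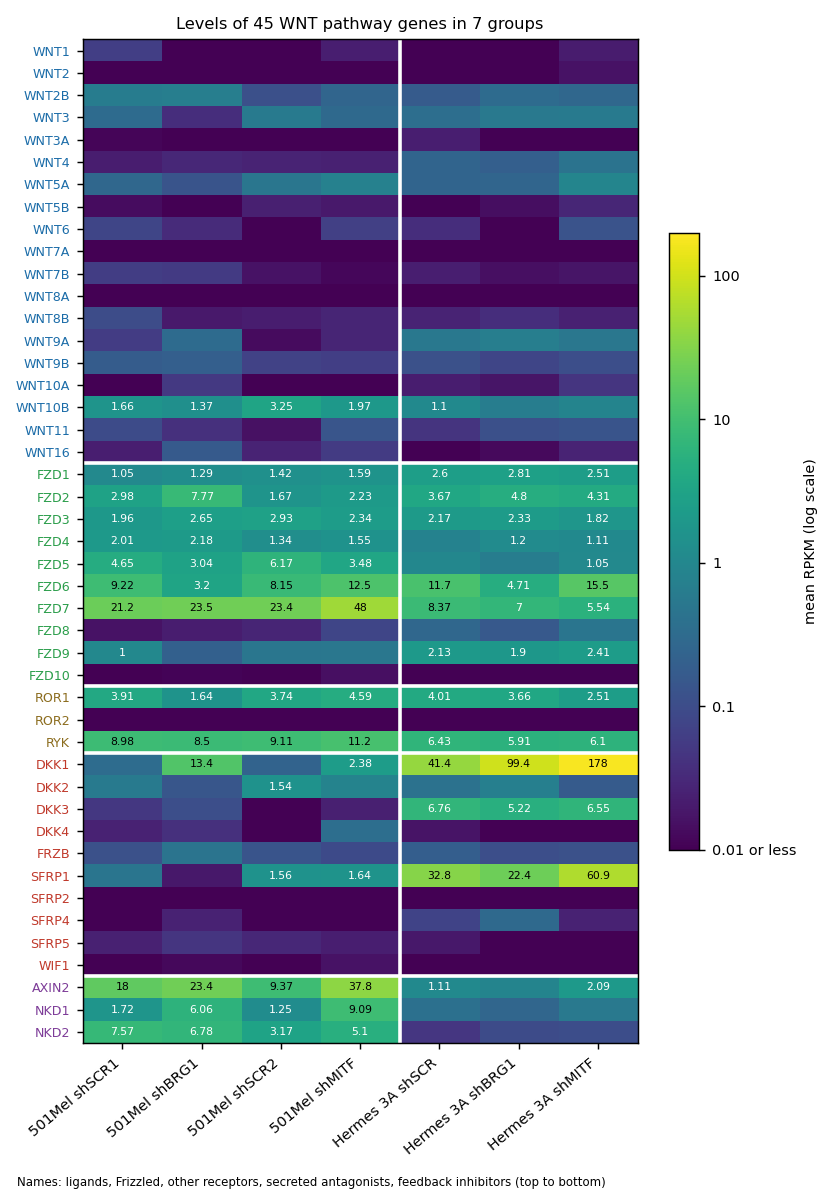
Mean RPKM of each of the 45 genes (rows, by role) in the 7 groups (columns), on a log colour scale, with the value written where it is at least 1 and genes that a group does not list drawn as 0.01 or less. Frizzled receptors, ROR1 and RYK are present in both lines, secreted antagonists reach 178 RPKM (DKK1) in Hermes 3A, and AXIN2, NKD1 and NKD2 are higher in 501Mel.

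Without a knockdown, the lines differed most in the antagonists and the feedback inhibitors. The 10 secreted antagonists summed to 80.7 to 82.5 RPKM in Hermes 3A shSCR cells, against 1.48 to 1.63 with shSCR1 and 3.00 to 3.99 with shSCR2 in 501Mel. The 3 feedback inhibitors showed the opposite order, with 1.47 to 1.60 RPKM in Hermes 3A, 26.9 to 27.8 with shSCR1 and 12.1 to 15.5 with shSCR2. Frizzled receptors summed to 32.0 to 33.9 RPKM in Hermes 3A and 41.6 to 49.6 RPKM over both 501Mel scramble groups, and the ligands to no more than 5.25 RPKM in any of these samples.

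In the test of the 501Mel scramble groups against Hermes 3A shSCR, 17 of 29 tested members were called, 8 higher and 9 lower in 501Mel, where 38.1% of all 20354 genes were called. A gene is called here at an adjusted p under 0.05 with a log2 fold change beyond 1 in size in edgeR's quasi-likelihood fit, where p was adjusted over all genes tested by the Benjamini-Hochberg method. DKK1 was lower in 501Mel (log2 difference -7.10 ± 0.13 SE), as were SFRP1 (-5.32 ± 0.16) and WNT9A (-4.25 ± 0.29). WNT9A averaged only 10.3 reads with shSCR1 and 2.5 with shSCR2. DKK3, a member of the DKK family without an established role at the LRP co-receptors, had 1187 to 1491 reads per sample in Hermes 3A shSCR cells and 1 to 18 in the 5 scramble samples of 501Mel. NKD2 (6.54 ± 0.24), AXIN2 (3.54 ± 0.15) and NKD1 (1.93 ± 0.09) were higher in 501Mel, together with FZD5 (2.44 ± 0.09) and FZD7 (1.41 ± 0.10). DKK2 (1.12), WNT10B (1.08) and FZD4 (1.01) lay just past the fold threshold, and each dropped below it when 1 replicate was left out (to 0.98, 0.98 and 0.90, without Hermes 3A shSCR replicate 1, shSCR2 replicate 1 and Hermes 3A shSCR replicate 2). The other members lower in 501Mel were SFRP4, WNT4 and FZD8 (-3.54 for FZD8), all at low counts, and FZD9 and FZD1 (-1.68 and -1.10). With shSCR1 alone on the 501Mel side, 14 of these calls held and 2 were lost. With shSCR2 alone, 15 held and 2 were lost. WNT2B was called higher in 501Mel with shSCR1 alone (1.91), and FZD2 was called lower with shSCR2 alone (-1.17). Line, medium and experiment cannot be told apart in this comparison.

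The scramble groups of 501Mel themselves differed, which bears on every 501Mel value below. With shSCR2 against shSCR1, 9 of 25 tested members were called, 2 higher (SFRP1 and DKK2) and 7 lower (WNT2B, WNT7B, WNT9A, WNT9B, WNT11, NKD2 and FZD9), beside 33.0% of 19056 genes. WNT2B was at 0.572 to 0.709 RPKM with shSCR1 and at 0.0944 and 0.133 RPKM with shSCR2. For the members, each 501Mel knockdown was therefore also fitted against the other scramble group, a choice made after these values were seen. The differences between the lines and the lists of other WNT genes below were not refitted in this way.

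Next, the 4 knockdown comparisons asked how the WNT genes responded to loss of BRG1 or MITF in each line. Of the 45 genes, 31 had enough reads to be tested in at least 1 comparison, 21 were tested in all 4 and 14 in none. Altogether 19 were called at least once, 15 of them in a single comparison, 3 in 2 or 3, and DKK1 in all 4.

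With shBRG1 in 501Mel, 7 of 26 tested members rose and 7 fell, where 39.1% of all genes tested were called, 21.7% up and 17.4% down. The median log2 fold change was 0.05 over the members and 0.05 over all genes. With shMITF in 501Mel, 6 of 24 rose and none fell by the call, beside 8.99% of all genes called, 5.59% up and 3.40% down, and the medians were 0.34 and 0.01. While edgeR and DESeq2 called 0 members down here, 3 were lower at an unadjusted p under 0.05, and FZD5 at an adjusted p under 0.05 without the fold threshold (-0.79 ± 0.15).

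In Hermes 3A the numbers were smaller. With shBRG1, 2 of 26 tested members rose and 1 fell (9.26% of all genes were called, 5.78% up and 3.47% down). With shMITF, 1 of 25 rose and 1 fell (7.39% of all genes, 3.35% up and 4.04% down). Scaled by library size instead of TMM, the trimmed mean normalization of edgeR, 3 members rose and none fell there. In both Hermes 3A comparisons the members' share of calls (11.5% and 8.00%) lay near that of all genes. Without the fold threshold, at an adjusted p under 0.05 alone, 10 members rose and 11 fell with shBRG1 and 7 rose and 1 fell with shMITF in 501Mel, beside 80.3% and 20.5% of all genes. In Hermes 3A 8 rose and 9 fell with shBRG1 and 3 rose and 3 fell with shMITF, beside 56.9% and 17.0% of all genes.

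**Figure D2:**
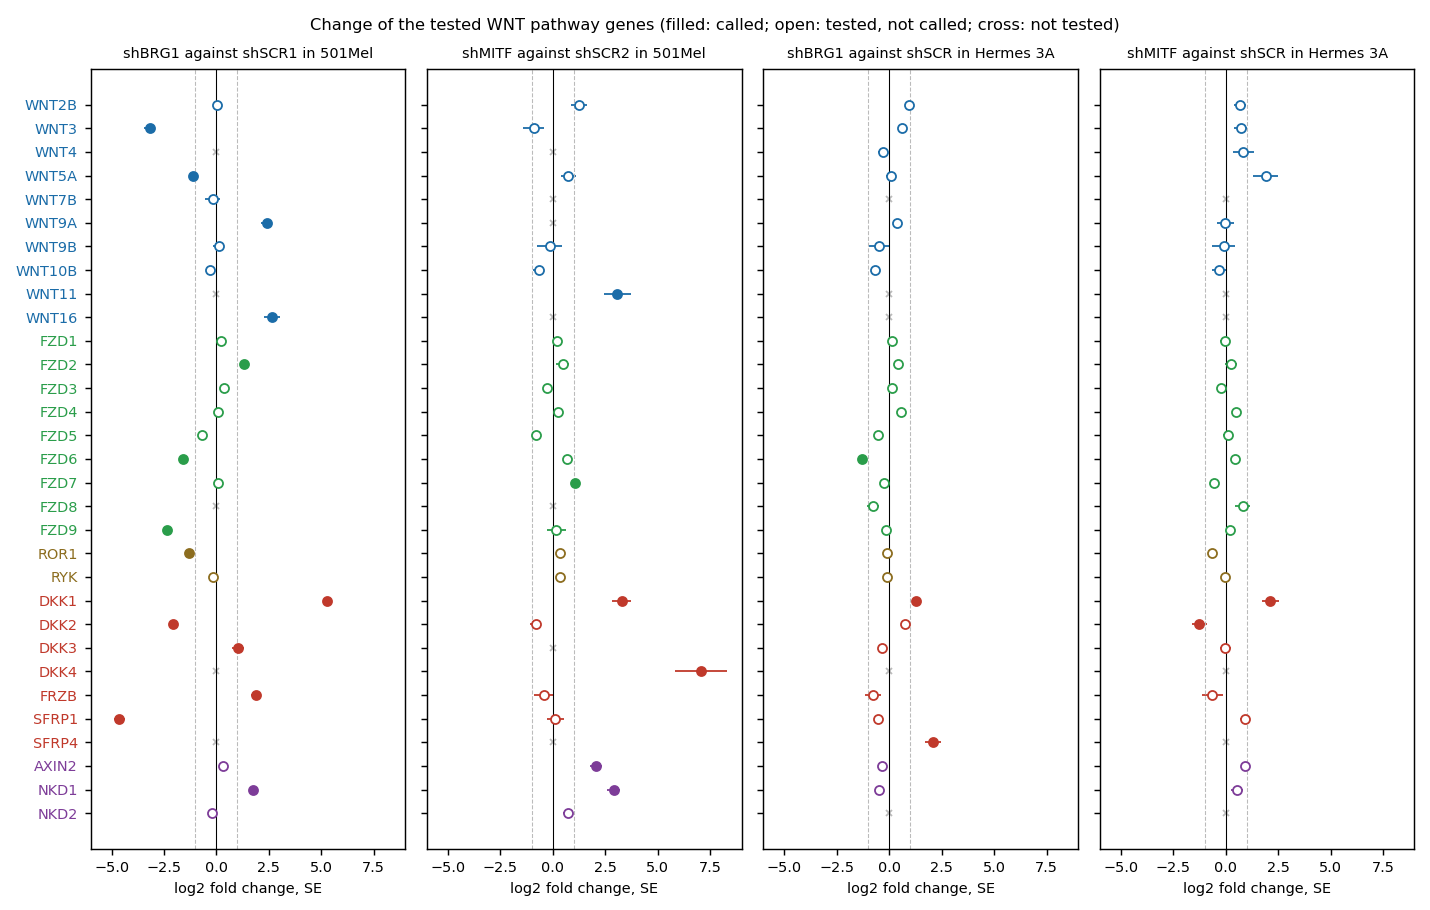
Log2 fold change with its standard error (horizontal axis) of the 31 genes tested in at least 1 of the 4 knockdown comparisons (panels), coloured by role, with filled points for called genes, open points for genes tested and not called, and crosses for genes not tested. DKK1 lies to the right of 1 in every panel, while most other filled points belong to 1 panel, and the place of DKK4, with 0 reads in its controls, depends on the prior count of the fit.

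Few ligands were expressed, and most of their changes were in low counts. WNT10B, a ligand of the beta-catenin branch, was the one ligand that reached a mean of 1 RPKM, with group means from 0.663 to 3.25 RPKM, and it was called in no knockdown comparison, although against shSCR2 it fell with shBRG1 in 501Mel (-1.31). WNT3, another ligand of that branch, had 60, 77 and 49 reads with shSCR1 and 6, 11 and 9 with shBRG1 in 501Mel. Thus WNT3 fell 9.12-fold without overlap (log2 fold change -3.19 ± 0.26, adjusted p = 1.05e-10, edgeR). In Hermes 3A shBRG1 cells it had 92 to 146 reads against 50 to 79 with shSCR and was not called (0.61 ± 0.18). WNT5A, the best-known ligand of the branch without beta-catenin, fell with shBRG1 in 501Mel from 73 to 108 reads to 46 to 60 (-1.11 ± 0.16), a call that was lost on library sizes instead of TMM (-0.76). Against shSCR2 its log2 fold change was -1.94.

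WNT9A and WNT16 rose with shBRG1 in 501Mel, by 2.40 ± 0.26 and 2.66 ± 0.39 on the log2 scale, from at most 13 and 5 reads per sample to 53 to 88 and 26 to 38. With shMITF in 501Mel the one ligand called was WNT11, with 1 and 3 reads with shSCR2 and 13 and 19 with shMITF. This rested on the control, since WNT11 had 14, 18 and 2 reads with shSCR1, against which its log2 fold change was 0.45 and not called, and the call was also lost without shSCR2 replicate 2 (3.24) or without shMITF replicate 2 (2.84). WNT2B turned direction with the control, from 1.24 ± 0.39 against shSCR2 (adjusted p = 0.0533, edgeR) to -1.30 against shSCR1, and it overlaps ST7L, which held more reads. It was called up against shSCR2 by DESeq2 (1.23), with library sizes (1.33) and in the fit of all 501Mel groups (1.25). With shBRG1 WNT2B was 0.04 ± 0.09 against shSCR1 and rose by 2.57 against shSCR2. WNT5A stood at 215 and 359 reads with shMITF against 135 and 208 with shSCR2 (0.75 ± 0.34, not called), and rose by 1.56 against shSCR1.

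In Hermes 3A the main edgeR fits called no ligand with either knockdown. With shBRG1, WNT2B (0.93 ± 0.16), WNT3 (0.61 ± 0.18) and WNT9A (0.39 ± 0.17) were higher and WNT10B lower (-0.69 ± 0.18) at an adjusted p under 0.05, all inside the fold threshold. WNT2B was called on library sizes (1.03) and without shSCR replicate 2 (1.09). At low counts, WNT11 was called up with shBRG1 without shSCR replicate 1 (1.74), and WNT6 down with no count filter (-4.58). WNT4 was called up with shMITF without shMITF replicate 1 (1.26). WNT5A had 489, 85 and 95 reads with shMITF against 92, 43 and 89 with shSCR, so that replicate 1 alone stood high. Its log2 fold change was 1.92 ± 0.59 (adjusted p = 0.0584 by edgeR) and 0.79 without that replicate. WNT5A was called by DESeq2, with the replicate block and in the fit of all Hermes 3A groups, as well as with library sizes.

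Of the 10 Frizzled receptors, 8 were tested in both 501Mel comparisons and 9 in both Hermes 3A comparisons, and their summed group means ran from 25.6 to 72.3 RPKM. FZD6 (ENSG00000164930), a receptor linked to planar polarity, stood at 8.77, 9.43 and 9.45 RPKM with shSCR1 and at 3.06, 3.21 and 3.34 with shBRG1 in 501Mel. In Hermes 3A it stood at 11.8, 10.5 and 12.8 RPKM with shSCR and at 4.61, 4.96 and 4.56 with shBRG1. The groups did not overlap in either line, and FZD6 fell 3.01-fold in 501Mel (-1.59 ± 0.06) and 2.46-fold in Hermes 3A (-1.30 ± 0.07). The difference between these effects was -0.32 ± 0.10 and not called, and FZD6 was the one member called lower with shBRG1 in both lines. With shMITF the levels were 13.9 and 11.1 RPKM against 7.67 and 8.62 with shSCR2 in 501Mel (0.65 ± 0.15), and 17.7, 11.9 and 16.8 RPKM in Hermes 3A (0.43 ± 0.17), and neither was called. BAALC-AS1, which overlaps FZD6, held 3.89% to 14.0% as many reads, the higher shares being those of the shBRG1 groups.

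FZD7 (ENSG00000155760, chr2:202034587-202038445, GRCh38) was the most abundant Frizzled receptor in 501Mel. It stood at 20.1 and 26.8 RPKM with shSCR2 and at 39.0 and 57.0 with shMITF, above all 5 scramble samples of the line. Thus FZD7 rose 2.11-fold (1.08 ± 0.22, adjusted p = 0.0176 by edgeR), although it dropped under the fold threshold without shSCR2 replicate 1 (0.88) or without shMITF replicate 2 (0.74). In Hermes 3A it stood at 9.24, 8.41 and 7.46 RPKM with shSCR and at 5.40, 5.26 and 5.97 with shMITF, lower without overlap but not called (-0.57 ± 0.14). The shMITF effect on FZD7 differed between the lines by 1.64 ± 0.26 (adjusted p = 0.0065 by the same test of the difference), where 2.64% of all genes were called. With shBRG1 it remained at 22.0 to 24.8 RPKM in 501Mel (0.08 ± 0.05) and at 6.89 to 7.06 RPKM in Hermes 3A (-0.24 ± 0.07).

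FZD2 (ENSG00000180340, chr17:44557459-44559570) stood at 3.25, 2.69 and 3.01 RPKM with shSCR1 and at 7.93, 7.86 and 7.53 with shBRG1 in 501Mel, a 2.50-fold rise without overlap (1.32 ± 0.08). FZD9 (ENSG00000188763, chr7:73433783-73436120) showed the opposite, with 1.21, 1.02 and 0.776 RPKM with shSCR1 and 0.181, 0.185 and 0.262 with shBRG1 (5.12-fold lower, -2.36 ± 0.20). In Hermes 3A shBRG1 cells FZD2 changed by 0.41 ± 0.10 and FZD9 by -0.16 ± 0.12, and neither was called. The shBRG1 effect on FZD9 differed between the lines (-2.23 ± 0.25), whereas that on FZD2 was 0.88 ± 0.14 apart and not called. FZD9 was itself 2.23-fold lower with shSCR2 than with shSCR1, and against shSCR2 its fall with shBRG1 was -1.17.

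The other Frizzled genes present at 1 RPKM or more were called in no knockdown comparison, but FZD5 fell with shBRG1 against shSCR2 in 501Mel (-1.10). Their group means ranged from 1.05 to 2.81 RPKM for FZD1, from 1.82 to 2.93 for FZD3, from 0.806 to 2.18 for FZD4 and from 0.674 to 6.17 for FZD5. FZD4 overlaps PRSS23 on the other strand, and in Hermes 3A shSCR cells the reads assigned to PRSS23 were 560% of those assigned to FZD4. Whether the counting used strand is not given in the sources used here, so these values are uncertain. FZD8 stayed under 1 RPKM and FZD10 at or under 5 reads in every sample.

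Among the other receptors, ROR1 (ENSG00000185483, chr1:63774022-64181498), a receptor tyrosine kinase-like protein that binds WNT5A, stood at 3.69, 3.86 and 4.17 RPKM with shSCR1. With shBRG1 in 501Mel it stood at 1.69, 1.57 and 1.67 RPKM, below all controls, and had fallen 2.48-fold (-1.31 ± 0.07), or by 0.96 on the log2 scale on library sizes instead of TMM. In Hermes 3A it stood at 4.14, 3.91 and 3.99 RPKM with shSCR and 3.83, 3.53 and 3.63 with shBRG1 (-0.12 ± 0.06), and the effect differed between the lines (-1.22 ± 0.09). With shMITF ROR1 stood at 2.10, 2.48 and 2.95 RPKM in Hermes 3A (-0.65 ± 0.16, not called) and at 4.56 and 4.61 in 501Mel (0.34 ± 0.14, not called). RYK, an atypical kinase-like WNT receptor, was at group means of 5.91 to 11.2 RPKM and called nowhere, and ROR2 had at most 4 reads in a sample.

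**Figure D3:**
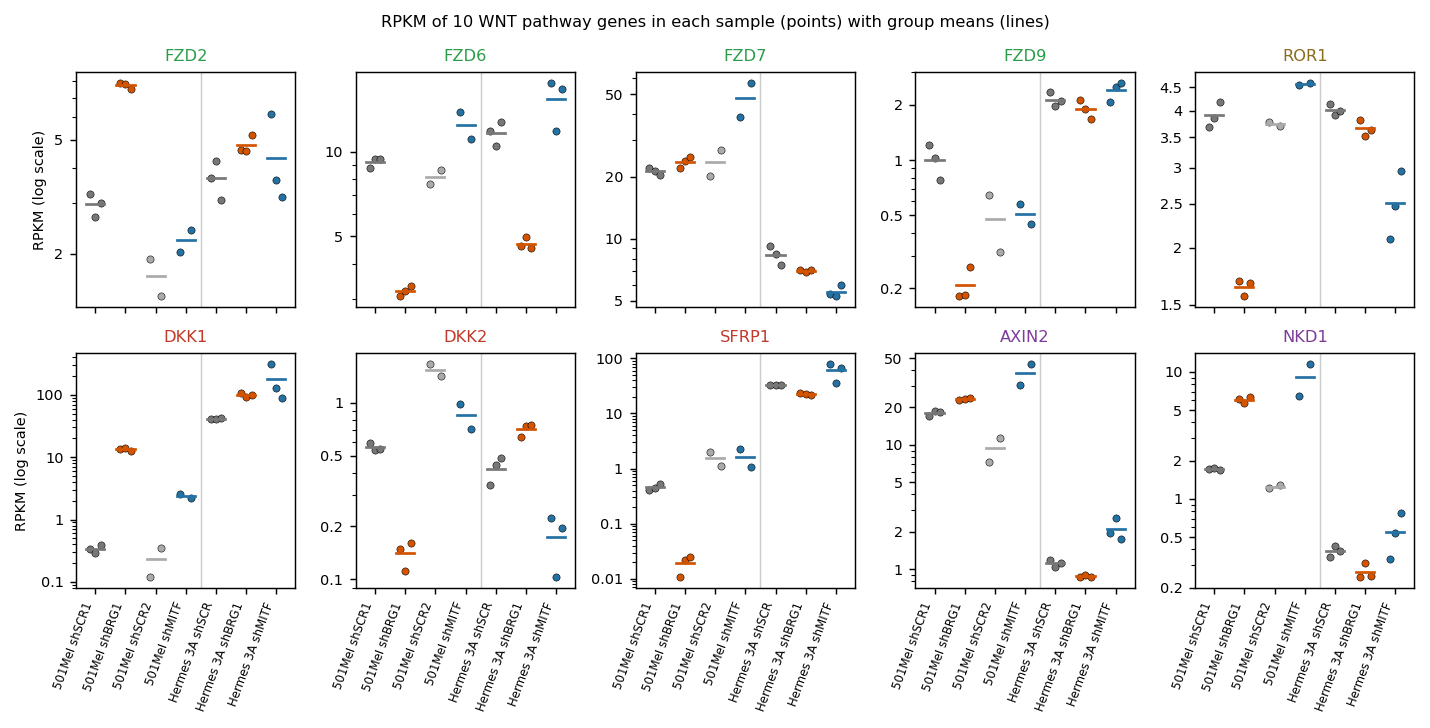
RPKM (log axis, one range per panel) of 10 genes in each of the 19 samples (points) with group means (lines), 501Mel groups left and Hermes 3A groups right of the grey line. DKK1 rises with both knockdowns in both lines, FZD6 falls with shBRG1 in both, and NKD1 and AXIN2 rise with shMITF in 501Mel, where the 2 shMITF samples lie apart.

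Secreted antagonists held the largest changes. DKK1 (ENSG00000107984, chr10:52314296-52318042, GRCh38), which blocks LRP5 and LRP6, stood at 0.334, 0.293 and 0.385 RPKM with shSCR1 and at 13.6, 14.1 and 12.6 with shBRG1 in 501Mel. With shSCR2 it stood at 0.119 and 0.346 RPKM and with shMITF at 2.59 and 2.18. Hence DKK1 was low in 501Mel controls, rose 38.6-fold with shBRG1 (5.27 ± 0.11, adjusted p = 3.53e-22) and rose 9.79-fold with shMITF (3.29 ± 0.45, adjusted p = 0.002, both by edgeR). Against the other scramble group these log2 fold changes were 5.55 and 2.85, and the shMITF value ranged from 2.81 to 4.33 when single replicates were left out.

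In Hermes 3A DKK1 was already abundant, at 40.6, 41.6 and 42.2 RPKM with shSCR. It stood at 106, 92.5 and 100.0 RPKM with shBRG1 and at 319, 129 and 87.7 with shMITF, all above the shared controls. The rise was 2.42-fold with shBRG1 (1.27 ± 0.05, adjusted p = 2.22e-19) and 4.38-fold with shMITF (2.13 ± 0.42, adjusted p = 0.0118, both by edgeR). Without shMITF replicate 1, the high sample, the latter was 1.40 (adjusted p = 0.0014 by the same edgeR test), and without any single shSCR replicate the adjusted p was 0.0589 to 0.0663. Exons of DKK1 overlap PRKG1-AS1 on the other strand, whose counts were at most 9.09% of those of DKK1 in any group.

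The shBRG1 effect on DKK1 was larger in 501Mel than in Hermes 3A by 3.97 ± 0.12 on the log2 scale, where 26.9% of all genes had effects that differed by the call. Even so, DKK1 in 501Mel shBRG1 cells remained below the level of Hermes 3A shSCR cells. The shMITF effect was 1.07 ± 0.78 apart between the lines and not called.

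SFRP1, which binds WNT ligands, averaged 98 reads per sample with shSCR1 in 501Mel, and was chosen for a full account after its values were seen. It stood at 0.417, 0.447 and 0.523 RPKM with shSCR1 and at 0.0107, 0.0218 and 0.0249 with shBRG1 in 501Mel, where only 3, 6 and 6 reads remained. SFRP1 thus fell 24.8-fold without overlap (-4.63 ± 0.27). In Hermes 3A it was among the most abundant members, at 32.8, 32.7 and 32.8 RPKM with shSCR and at 23.1, 22.2 and 21.8 with shBRG1 (-0.54 ± 0.04, under the fold threshold). The shBRG1 effect differed between the lines by -4.12 ± 0.23. With shMITF it stood at 80.7, 35.9 and 66.1 RPKM in Hermes 3A (0.92 ± 0.26, not called) and at 2.23 and 1.05 in 501Mel, where it overlapped the 2.01 and 1.11 RPKM of shSCR2 (0.11 ± 0.41) but rose by 1.85 against shSCR1. Without Hermes 3A shMITF replicate 2, the low sample, the Hermes 3A value was 1.18 and called.

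DKK2 (ENSG00000155011, chr4:106921802-107283806), which binds the LRP co-receptors as DKK1 does, moved the other way from DKK1 with shBRG1 in 501Mel. It stood at 0.593, 0.541 and 0.549 RPKM with shSCR1 and at 0.149, 0.112 and 0.160 with shBRG1, a 4.19-fold fall (-2.07 ± 0.17, and -3.53 against shSCR2). In Hermes 3A it stood at 0.344, 0.442 and 0.486 RPKM with shSCR, at 0.642, 0.738 and 0.744 with shBRG1 (0.76 ± 0.17, not called) and at 0.224, 0.103 and 0.196 with shMITF. The groups did not overlap, and the shMITF fall was called (-1.26 ± 0.37, adjusted p = 0.0479 by edgeR), but the call was lost when any sample other than shMITF replicate 1 was left out, with log2 fold changes from -0.99 to -1.40. The shBRG1 effects in the lines differed by -2.85 ± 0.26. In 501Mel shMITF cells DKK2 stood at 0.981 and 0.713 RPKM against 1.67 and 1.41 with shSCR2 (-0.82 ± 0.28, not called).

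The remaining antagonists called were low or called once. FRZB, an SFRP family member, rose with shBRG1 in 501Mel from 10 to 23 reads to 63 to 99 (1.89 ± 0.23) and was not called in Hermes 3A (-0.79 ± 0.38), with a difference between the lines of 2.64 ± 0.44. DKK3 rose with shBRG1 in 501Mel from 7 to 18 reads to 26 to 34 (1.03 ± 0.30), a call lost without shSCR1 replicate 2 or 3. SFRP4 rose in Hermes 3A shBRG1 cells from 5, 11 and 15 reads to 64, 63 and 33 (2.08 ± 0.36). DKK4 had no read with shSCR2 and 10 and 22 with shMITF in 501Mel, at least 11.2-fold higher against a floor of 3 reads over the group, and 1 read in each shSCR1 sample. Without shMITF replicate 2 it had too few reads to be tested. DKK3 was the other antagonist above 1 RPKM in Hermes 3A, at 6.65 to 6.90 RPKM with shSCR, 5.08 to 5.39 with shBRG1 and 4.10 to 9.33 with shMITF. SFRP2, SFRP5 and WIF1 had at most 6 reads in any sample.

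Of the 3 intracellular feedback inhibitors, NKD1 and AXIN2 rose with shMITF in 501Mel and NKD2 was not called. NKD1 (ENSG00000140807, chr16:50548330-50649249, GRCh38), which binds Dishevelled, stood at 1.21 and 1.29 RPKM with shSCR2 and at 6.52 and 11.7 with shMITF. It stood at 1.72, 1.76 and 1.69 RPKM with shSCR1 and at 6.14, 5.65 and 6.38 with shBRG1. Both knockdowns of 501Mel therefore lay above all 5 scramble samples, and NKD1 rose 7.51-fold with shMITF (2.91 ± 0.31, adjusted p = 0.00287) and 3.36-fold with shBRG1 (1.75 ± 0.05, adjusted p = 7.19e-19, both by edgeR). The shMITF call was lost without either shSCR2 replicate (log2 fold changes of 2.85 and 2.94, adjusted p = 0.189 and 0.142 by the same edgeR test), while against shSCR1 it was 2.43 and held.

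In Hermes 3A NKD1 was under 1 RPKM throughout, at 0.349, 0.423 and 0.385 RPKM with shSCR, 0.241, 0.312 and 0.246 with shBRG1 and 0.335, 0.536 and 0.775 with shMITF. The shBRG1 samples were lower (-0.51 ± 0.12, not called) and the shMITF samples overlapped the controls (0.53 ± 0.29). The effects differed between the lines for both knockdowns, by 2.22 ± 0.11 for shBRG1 and by 2.37 ± 0.44 for shMITF.

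AXIN2 (ENSG00000168646, chr17:65528563-65561647), a scaffold of the complex that degrades beta-catenin, stood at 7.34 and 11.4 RPKM with shSCR2 and at 30.4 and 45.2 with shMITF. It rose 4.15-fold (2.05 ± 0.28, adjusted p = 0.00628 by edgeR), and against shSCR1, at 17.0, 18.6 and 18.3 RPKM, by 1.10 on the log2 scale. With both scramble groups pooled it was 1.41 and not called. With shBRG1 it stood at 22.8, 23.3 and 23.9 RPKM, above shSCR1 without overlap (0.31 ± 0.05, under the fold threshold), and against shSCR2 the rise was 1.23 and called. In Hermes 3A AXIN2 stood at 1.18, 1.03 and 1.12 RPKM with shSCR, 0.862, 0.895 and 0.859 with shBRG1 (-0.34 ± 0.11) and 1.95, 2.60 and 1.74 with shMITF (0.94 ± 0.20). These groups did not overlap, and neither change passed the fold threshold, although that of shMITF did on library sizes (1.05) and without shMITF replicate 3 (1.06).

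NKD2, the paralog of NKD1, was called in no knockdown comparison against the control of its own set. It stood at 6.17 to 7.68 RPKM with shBRG1 against 6.93 to 8.34 with shSCR1, and at 4.50 and 5.70 with shMITF against 3.55 and 2.80 with shSCR2 (0.73 ± 0.23). Against the other scramble group both values turned, to a called rise of 1.03 with shBRG1 (-0.23 ± 0.08 against shSCR1) and to -0.55 with shMITF. Hermes 3A cells had at most 27 reads of NKD2 in a sample.

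**Figure D4:**
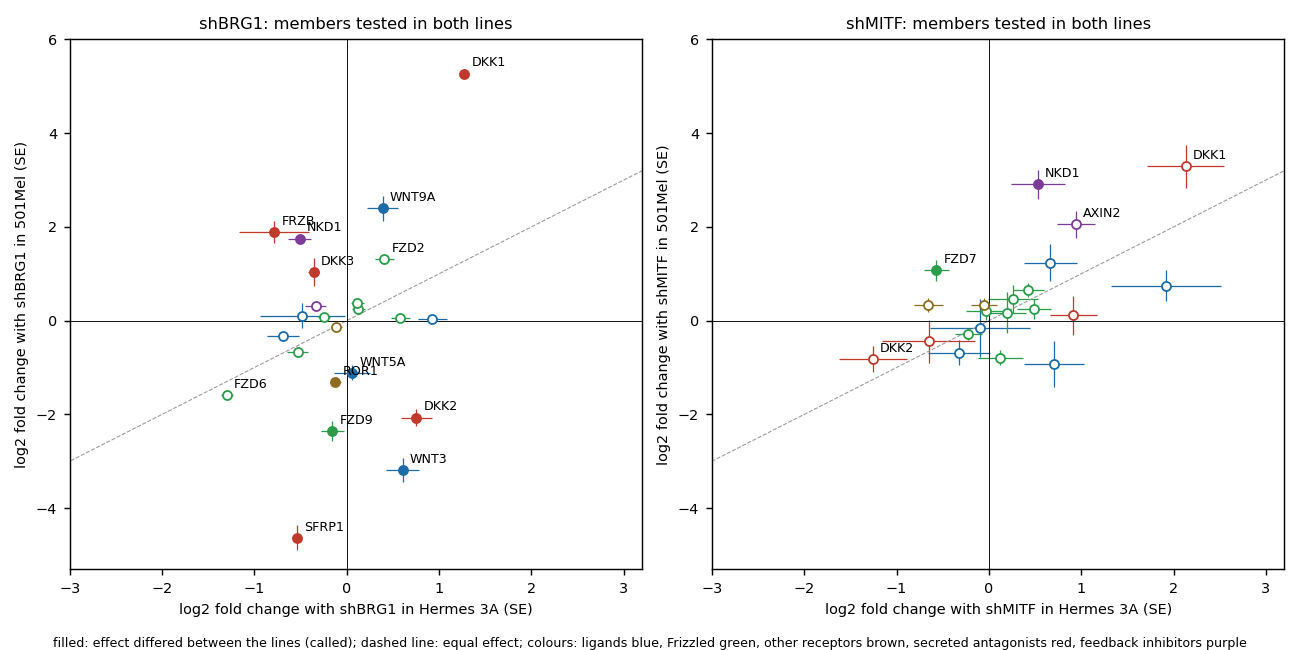
Log2 fold change in Hermes 3A (horizontal) against 501Mel (vertical) with standard errors for the members tested in both lines, shBRG1 left and shMITF right, filled where the effect differed between the lines by the call. With shBRG1, DKK1 at 5.27 in 501Mel and 1.27 in Hermes 3A and SFRP1 at -4.63 and -0.54 lie far from the dashed line of equal effect, while FZD6 lies close to it.

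Tested directly, the shBRG1 effect differed between the lines for 13 of 30 members, 5 more positive and 8 more negative in 501Mel, beside 26.9% of all genes. On library sizes 6 were called more positive and 5 more negative, with FZD2 (1.16) gained and 3 of the 13 lost. By edgeR the shMITF effect differed for NKD1 and FZD7 of 28 members tested, both more positive in 501Mel, beside 2.64% of all genes (2.00% up and 0.643% down). AXIN2 (1.10 ± 0.33) was not called here, but was by DESeq2 (1.09) and with the replicate block (1.13). By edgeR and DESeq2 the effect was more negative in 501Mel for 0 members, and at an unadjusted p under 0.05 for 2. Scaling by library size moved the median of all genes up by 0.35 for shBRG1 in 501Mel and by 0.0958 to 0.104 in the other 3 comparisons, and no called member changed its sign.

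The rest of the pathway was read from 4 lists of other WNT genes, whose counts stand beside calls for 39.1% of all genes with shBRG1 and 8.99% with shMITF in 501Mel, and for 9.26% and 7.39% in Hermes 3A. These lists were read only from the main fits, and their 501Mel values were not checked against the other scramble group. Of 22 genes for secretion and co-receptors, 4 rose and 7 fell of 16 tested with shBRG1 in 501Mel, 5 rose of 15 with shMITF, 1 rose and 1 fell of 16 with shBRG1 in Hermes 3A, and none of 16 with shMITF there by edgeR, where 2 were higher and 4 lower at an unadjusted p under 0.05. RNF43, a ubiquitin ligase that removes Frizzled receptors from the cell surface, rose in both 501Mel knockdowns (2.41 ± 0.06 with shBRG1 and 1.73 ± 0.15 with shMITF), as did the co-receptor LRP5 (1.19 ± 0.07 and 1.00 ± 0.23). ZNRF3, the paralog of RNF43, rose with shMITF (1.65 ± 0.20). The co-receptor LRP6 (-1.29 ± 0.05), PTK7 (-2.03 ± 0.05), the DKK receptors KREMEN1 (-1.61 ± 0.06) and KREMEN2 (-1.84 ± 0.11), and NOTUM, which removes the lipid of WNT ligands (-1.51 ± 0.11), fell with shBRG1 in 501Mel. APCDD1, a membrane WNT inhibitor, fell with shBRG1 (-2.44 ± 0.05) and rose with shMITF (1.56 ± 0.13).

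Of the 25 genes of the beta-catenin machinery, all were tested, and 3 rose and 5 fell with shBRG1 in 501Mel, a share below that of all genes, 3 rose and 1 fell with shMITF, none was called by edgeR with shBRG1 in Hermes 3A (14 higher and 6 lower at an unadjusted p under 0.05) and 1 rose with shMITF there. CTNNB1, which encodes beta-catenin, fell with shBRG1 in 501Mel (-2.25 ± 0.05), as did APC (-1.40 ± 0.05), TCF7 (-1.40 ± 0.06) and the corepressor TLE2 (-3.33 ± 0.16). LEF1 rose with shBRG1 (1.41 ± 0.05) and with shMITF (1.32 ± 0.19) in 501Mel, and BCL9L, a beta-catenin coactivator, likewise (1.73 ± 0.10 and 1.07 ± 0.17). TLE4 was the one machinery gene called in Hermes 3A, where it rose with shMITF (2.28 ± 0.23), and it rose with shMITF in 501Mel too (1.22 ± 0.32).

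Of 14 usual beta-catenin targets, 7 of which also stand in the lists above, 6 rose and 5 fell of 13 tested with shBRG1 in 501Mel, and 7 rose and 1 fell of 13 with shMITF, with a median of 1.32 in the latter against 0.01 over all genes. ID2 (3.25 ± 0.06 and 1.75 ± 0.27) and JUN (2.13 ± 0.07 and 1.34 ± 0.22) rose in both, whereas the cell cycle gene CCND1 fell in both (-1.82 ± 0.05 and -1.17 ± 0.16) and also with shMITF in Hermes 3A (-1.36 ± 0.21). TNFRSF19 fell with shBRG1 in 501Mel (-3.94 ± 0.05) and in Hermes 3A (-1.56 ± 0.05). In Hermes 3A 2 of 12 fell with shBRG1 and 1 of 12 with shMITF, and edgeR called none up, with 2 and 3 higher at an unadjusted p under 0.05. The median of these targets was 0.84 with shBRG1 in 501Mel, against 0.05 over all genes. In Hermes 3A it was -0.18 with shBRG1 and -0.44 with shMITF, against 0.01 and 0.05 over all genes.

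Of 20 genes of the planar polarity and calcium branch, 3 rose and 5 fell with shBRG1 in 501Mel, 2 rose and 1 fell of 19 with shMITF, 1 rose of 18 with shBRG1 in Hermes 3A, and 1 rose and 1 fell of 18 with shMITF there. The protein kinase PRKCA (-2.73 ± 0.08) and CAMK2G (-1.33 ± 0.05) fell with shBRG1 in 501Mel. NFATC2 rose there (2.52 ± 0.20) and with shMITF in Hermes 3A (3.52 ± 0.48). DAAM1 fell with shMITF in 501Mel (-1.23 ± 0.13) and in Hermes 3A (-1.10 ± 0.20). The median log2 fold changes of these lists, other than the beta-catenin targets named above, lay between -0.80 and 0.26 over the 4 comparisons.

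The melanocyte lineage markers and the fibroblast markers given above also moved with the knockdowns, as did the spread between replicates. Their part in the changes of the WNT genes was not tested.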

How the data were processed

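RNA-seq of 19 samples in 7 groups was used, with the group and replicate number from the sample labels. For each sample the authors deposited 1 table of unnormalized read counts by Ensembl identifier, from RNA depleted of ribosomal RNA, with a nuclease step that lowers abundant cDNAs. The tables listed 34033 identifiers with shMITF in Hermes 3A, unlike its shSCR control with 42224. They listed 41467 with shSCR2 and shMITF in 501Mel, and 42224 in the other groups. Genes not listed for every sample of a comparison were left out of its test. Per the submitters' processing notes, CASAVA 1.8, TopHat 1.4.1 and Bowtie 0.12.7 were used with hg19. The counting program, its strand setting and the annotation release are not given in the sources used here. Replicates are not stated to be separate cultures, and p-values then measure the spread between these samples, which may be technical.

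Each comparison was fitted with edgeR 4.0.16 (R 4.3.3) on its own groups: TMM normalization, filterByExpr, glmQLFit with robust estimation, glmQLFTest and Benjamini-Hochberg adjustment over all genes tested, calling genes with adjusted p below 0.05 whose log2 fold change exceeded 1 in size. A standard error (SE) is that of the log2 fold change. Differences between lines were contrasts in 1 fit of 4 groups. The code was tested on simulated data. RPKM used TMM over 22817 genes in 19 samples and exon lengths of GENCODE 29 (GRCh38), matched by Ensembl identifier, as were coordinates. Promoter windows (250 bases upstream, 34 of 45 members) came from RefSeq on GRCh38.p14. Counts assigned to members that overlap another gene (AXIN2, DKK1, FZD4, FZD6, NKD1, WNT2B, WNT11) are uncertain. The total of 29158502 to 78857900 reads per sample sets the precision.

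Members and lists were chosen with earlier results of these data known. Members called in a knockdown comparison with a mean of at least 100 reads per sample in the higher group are given sample by sample, other called members by fold change or count, and members at 1 RPKM or more called nowhere by their range. Pathway genes are named among those called with at least 100 reads. Alternatives were DESeq2 1.42.0, library sizes without TMM factors, either no filter or a minimum of 10 counts in each sample, the replicate block, all groups of a line in 1 fit, each replicate left out, glmTreat, no fold threshold, pooled scramble groups and, added after the data were seen, the other scramble group. Python 3.11.15 with pandas 2.3.3, numpy 2.4.6 and matplotlib 3.10.9 made tables and figures.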

Additional observations from a re-analysis of the deposited data

Results flagged for a closer look

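Each of the following members is listed because a test of the difference itself, in 1 edgeR fit of both lines, called its knockdown effect different between 501Mel and Hermes 3A. Values are 501Mel minus Hermes 3A on the log2 scale. For shBRG1 the effect was more positive in 501Mel for the antagonists DKK1 (3.97), FRZB (2.64) and DKK3 (1.36), the feedback inhibitor NKD1 (2.22) and the ligand WNT9A (1.98). It was more negative in 501Mel for the antagonists SFRP1 (-4.12) and DKK2 (-2.85), the ligands WNT3 (-3.82), WNT11 (-2.73) and WNT5A (-1.20), the receptors FZD9 (-2.23) and ROR1 (-1.22), and the feedback inhibitor NKD2 (-1.23). For shMITF it was more positive in 501Mel for NKD1 (2.37) and FZD7 (1.64). On library sizes instead of TMM, 3 of the shBRG1 calls were lost, and 5 members stayed called more negative in 501Mel. On the 501Mel side these tests used shSCR1 for shBRG1 and shSCR2 for shMITF, and were not refitted with the other scramble group. Against shSCR2 the shBRG1 change of NKD2 in 501Mel was 1.03, beside -0.23 against shSCR1. WNT11 averaged 0.095 CPM with shBRG1, 0.229 with shSCR1 and 0.037 with shSCR2. The 14 members called with shBRG1 in 501Mel, which do not include these, kept their calls against shSCR2.

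Counts were low for some of these. WNT11 had 2 to 18 reads per sample in the 4 groups, NKD2 had 1 to 27 reads per sample in Hermes 3A, and the difference for NKD2 was -0.56 and not called without Hermes 3A shBRG1 replicate 2. NKD1 lost its shMITF call without either shSCR2 replicate, without 501Mel shMITF replicate 2 or without Hermes 3A shSCR replicate 2, with differences from 1.87 to 2.41.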

How the results depend on the processing

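Low counts limit the ligands, and the choice of scramble group changed calls in 501Mel. Dropping the fold threshold keeps every call by definition, and that setting and glmTreat reread the main fit, so neither can change a sign. With both settings included, 332 values of the members called in the 4 knockdown comparisons kept direction and call. Another 34 kept direction and lost the call, and none changed sign. Some members not called did, WNT2B (1.24 to -1.30) and NKD2 (0.73 to -0.55) with shMITF in 501Mel against shSCR1 among them. DESeq2 gave no adjusted p for DKK4 and WNT11 with shMITF in 501Mel, and these stand in neither count. The same holds for called members that a setting left untested, such as those under 10 counts in a sample. With that minimum, the counts hold 3 values for shMITF in 501Mel, where 6 members were called.

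Counts of members called moved by over 1.5 times as follows. With at least 10 counts in every sample, shBRG1 in 501Mel gave 4 up and 4 down, shBRG1 in Hermes 3A 1 up, the shBRG1 difference between lines 4 down, the line comparison 3 lower in 501Mel, and shSCR2 against shSCR1 4 down, since fewer genes were tested. Without the fold threshold, 11 fell with shBRG1 in 501Mel, 1 fell with shMITF in 501Mel, 8 rose and 9 fell with shBRG1 in Hermes 3A, and 3 rose and 3 fell with shMITF in Hermes 3A. glmTreat gave 3 up with shMITF in 501Mel, and 0 up and 0 down with shMITF in Hermes 3A. Library sizes gave 3 up and 0 down with shMITF in Hermes 3A, and 5 down for the shBRG1 difference between lines. DESeq2 gave 2 up with shMITF in Hermes 3A and 4 down for shSCR2 against shSCR1. No filter on low counts gave 2 down with shBRG1 and 0 up with shMITF in Hermes 3A. The fit of all Hermes 3A groups gave 2 up with shMITF. The other scramble group as the control gave 13 up with shBRG1 and 3 down with shMITF in 501Mel, and all 14 members called with shBRG1 were called there too. The cause of these changes was otherwise not tested.

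When single replicates were left out, with a lone sample of a group assumed to vary like the other group, the numbers of members called up ranged from 7 to 8 and down from 7 to 8 with shBRG1 in 501Mel, from 3 (without shMITF replicate 2) to 7 and from 0 to 1 with shMITF in 501Mel, from 2 to 3 and from 1 to 2 with shBRG1 in Hermes 3A, and from 0 to 3 and from 0 to 1 with shMITF in Hermes 3A. For the shBRG1 difference between lines they ranged from 5 to 6 and from 7 to 9, for the shMITF difference from 1 to 3 and from 0 to 1, for the line comparison from 7 to 8 and from 8 to 9, and for shSCR2 against shSCR1 from 2 to 4 and from 3 (without shSCR1 replicate 1) to 9.

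Groups share replicate numbers, and the sources used here do not state whether same-numbered samples were handled together. Deviations of same-numbered samples correlated by -0.0489 to 0.0492 in the 3 comparisons with 3 pairs. With the 2 pairs of shMITF and shSCR2 the value was 0.131. There the deviations within a group mirror each other, so that this value cannot show whether the samples were paired. With the replicate block, 7 rose and 7 fell with shBRG1 and 6 rose and 0 fell with shMITF in 501Mel, and 2 rose and 1 fell with shBRG1 in Hermes 3A, while with shMITF in Hermes 3A 2 rose and 0 fell. The block gave 5 and 7 for the shBRG1 difference between lines, 3 and 0 for the shMITF difference, 7 and 9 for the line comparison, and 3 and 6 for shSCR2 against shSCR1. Not every sample correlated best with its own number.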
